A study of Mus musculus with 4 samples.

Results

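The genes described are 35 genes of mitochondrial protein import, out of 25796 genes listed for mouse colon epithelial cells. They were chosen by name: every gene whose symbol starts with Timm or Tomm and a number, plus Dnajc19, Pam16, Grpel1, Grpel2, Pmpca, Pmpcb, Chchd4, Gfer, Samm50, Mtx1 and Mtx2, without pseudogenes. The rule itself uses names alone. The name rule also took in Tomm6os, a noncoding antisense RNA of the Tomm6 locus, so 34 of the 35 code for protein. They have 71 of the 87526 listed transcripts, and each gene is given by its transcript with the highest mean.

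RNA came from epithelial cells released from mouse colon with a chelating buffer. The 4 libraries are the inputs, before antibody capture, of a survey of the RNA mark N6-methyladenosine (m6A). The captured libraries were not analysed here. WT is the label of 2 libraries and Ythdf1 KO of the other 2 (below, the KO-labelled pair), whose label says that the m6A reader Ythdf1 is lost. No source used here gives strain, age, sex, allele or the cells that lost the gene. Nor do the labels say that a group's libraries are from different mice, and p-values then cover spread among these samples alone, technical or not. The comparison asks which RNAs differ in level between the labelled genotypes before any enrichment.

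Nearly all mitochondrial proteins are made in the cytosol and carried into the organelle. The TOM complex is the gate of the outer membrane, and the SAM complex inserts barrel-shaped proteins there. In the space between the membranes, small TIM chaperones and a disulfide relay handle hydrophobic and cysteine-rich proteins. Proteins with a cleavable presequence pass through the TIM23 channel of the inner membrane, are pulled in by the import motor, and lose the presequence to a matrix peptidase. Carrier proteins take the TIM22 channel. Colonocytes have many mitochondria and oxidise butyrate in them.

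Depth ran from 21686140 to 30951138 reads per library, with 1 transcript per gene. Of these, 19573 to 32306 reads fell on the import genes. All 12 epithelial markers were detected in every library. Of these, 2 lay wholly above WT (Epcam, ratio 1.08, and Krt18, 1.14), against 14.3% of all genes. Another 3 lay wholly below (Car1, Cdx2 and Krt20, ratios 0.530, 0.779 and 0.912), against 21.4% of all genes. The summed epithelial values overlapped between the groups, at 1013203 and 957496 in WT, and 1066174 and 818421 in the KO-labelled pair. Car1, a carbonic anhydrase of surface colonocytes, stood at 102727 and 116128 normalised read counts in WT, against 73552 and 42374. Of the 13 leukocyte markers 12 were listed, and they summed to 2166 and 2041 in WT 1 and 2, 1252 in Ythdf1 KO 1 and 1554 in Ythdf1 KO 2. The summed leukocyte values of the KO-labelled pair lay below both WT libraries. Of these 12 markers, 3 lay wholly below WT and 0 above, against 21.4% and 14.3% of all genes. The part of leukocytes in the results was not tested. Of the 14 stromal, vascular, muscle and nerve markers 13 were listed, with sums of 2075 and 4027 in WT, and 2743 and 1585 in the KO-labelled pair. Among these 13, 4 lay wholly below WT and 0 above, against the same shares of all genes. The targeted gene itself was not lower by label but lay wholly above WT, with a ratio of 1.87. Ythdf1 stood at 1088 and 775 in WT 1 and 2, and at 1752 and 1737 in Ythdf1 KO 1 and 2. All directions therefore follow the labels.

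Among the import genes, Timm50 stood apart, at nearly 3 times the WT level in each KO-labelled library. No import gene passed the test across all genes in limma-trend (adjusted p under 0.05), where 0 of 23116 genes passed, a background of 0.0%. An unadjusted p under 0.05 was found for 1 import gene, Timm50, against 5.44% of all genes (1.92% with the KO-labelled pair higher). In 9 of the 35 import genes the KO-labelled pair lay wholly above WT, where 14.3% of all genes did. In 4 it lay wholly below, where 21.4% of all genes did. Among all genes whose mean reached 100, the shares were 17.7% and 17.2%, a filter that Chchd4 (77.3) and Timm8a2 (82.6), both above WT, do not pass. The other 22 import genes overlapped between the groups.

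**Figure D1:**
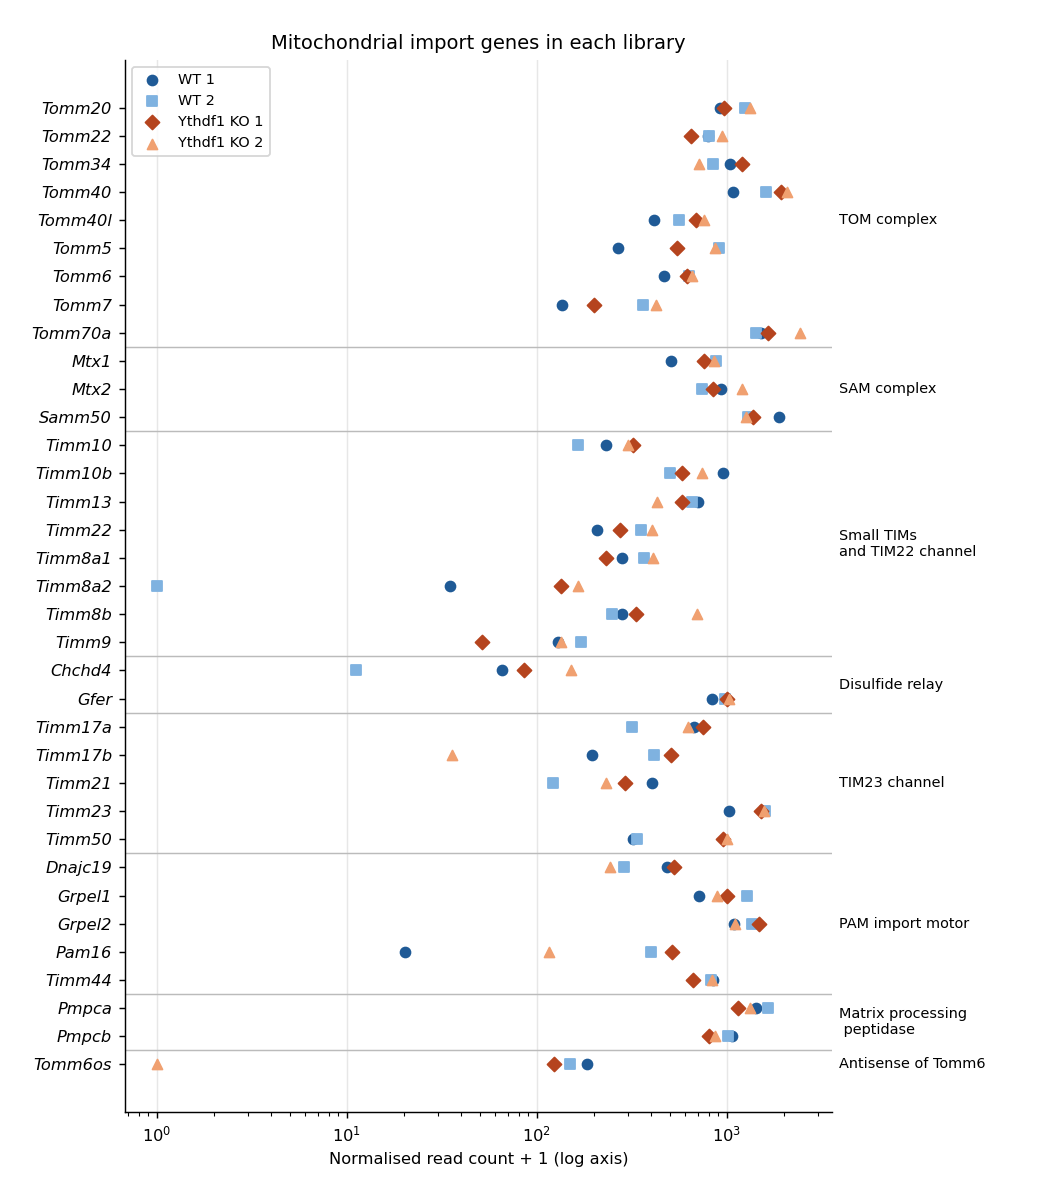
Normalised read count plus 1 (log axis) of each import gene in the 4 libraries, by role; circles and squares are WT 1 and 2, diamonds and triangles Ythdf1 KO 1 and 2. The Timm50 pairs lie apart, at 320.1 and 335 against 957 and 995, while Pam16, Timm17b and Chchd4 spread widely within a group.

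Timm50 is the presequence receptor of the TIM23 channel, which takes over proteins emerging from the TOM complex and helps keep the channel shut when idle. It (gene ID 66525, transcript XM_011250673.2) lies on the minus strand of mm10 chromosome 7, from 28305516 to 28311885. Its normalised read counts were 320.1 and 335 in WT 1 and 2, and 957 and 995 in Ythdf1 KO 1 and 2. Behind these values were 284, 332, 987 and 1203 reads. The pairs did not overlap, and the members of each pair lay within 1.05 times of each other. The means were 328 ± 10.7 and 976 ± 27.0 (SD, n = 2 each), a ratio of 2.98.

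In limma-trend the log2 difference of Timm50 was 1.57 ± 0.35 (SE), with an adjusted p = 0.759 over all genes. By unadjusted p it had rank 11 of the 23116 genes tested. The authors' deposited table gave the same transcript a log2 fold change of 1.57 with q = 2.19e-05, the only import gene with q under 0.05 there. Such a q was given to 4.47% of all genes by their most abundant transcript, 1.24% higher and 3.23% lower with the KO label. DESeq2 on recovered reads also called Timm50 alone among the import genes (adjusted p = 9.79e-06), with 6.49% of all genes called. edgeR's quasi-likelihood test did not call it (adjusted p = 0.833). That tool called 0.0% of all genes and gave 4.58% an unadjusted p under 0.05. limma without a trend, which was also run without the robust setting, called 2.73% of all genes and no import gene. The tools thus gave the same size of difference and different adjusted values.

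The second listed transcript of Timm50, NM_025616.3, showed the same step. It stood at 259 and 292 in WT 1 and 2, 729 in Ythdf1 KO 1 and 751 in Ythdf1 KO 2, a ratio of 2.69. The 2 transcripts begin 161 bases apart and end 310 bases apart, and a read in a stretch that both hold can count for each, so they are not independent measurements. Gm51445, a long noncoding RNA gene in RefSeq, overlaps 2046 bases of the Timm50 locus. Gm51445 itself is not listed, and no source used here says whether counting used strand, so its part in the Timm50 values was not tested.

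The 250 bases before the RefSeq start of Timm50 (GRCm38.p6, the build of mm10, chr7:28312047-28312296, minus strand) are shown because this gene has the largest separation of the groups relative to the spread within them. Capitals mark GGGCGG or its reverse complement CCGCCC, the core of Sp1 sites, found at 3 places.
Timm50: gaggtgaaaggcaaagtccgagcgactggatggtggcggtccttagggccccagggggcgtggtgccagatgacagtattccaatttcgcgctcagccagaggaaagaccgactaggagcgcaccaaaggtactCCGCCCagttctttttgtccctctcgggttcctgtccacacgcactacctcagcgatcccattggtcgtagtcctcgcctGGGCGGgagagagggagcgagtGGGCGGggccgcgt

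The other 4 genes of the TIM23 channel overlapped between the groups. Timm23, the channel protein, stood at 1022 and 1583 in WT 1 and 2, 1503 in Ythdf1 KO 1 and 1563 in Ythdf1 KO 2. Timm17a, its partner in the channel, stood at 673 and 315, and at 750.4 and 619.5. In both genes WT 1 and WT 2 differed from each other by 1.55 and 2.14 times. Timm21, which links the channel to TOM and to respiratory chain complexes, had a WT mean of 262 ± 200.4 and a KO-labelled mean of 259.8 ± 41.1 (SD, n = 2 each). The Timm50 value divided by the Timm23 value of the same library was 0.313 and 0.212 in WT, and 0.637 in both KO-labelled libraries. The same quotient with Timm44 was 0.381 and 0.408, against 1.45 and 1.20. Only the change of such a quotient between libraries can be read, since transcript lengths were not used.

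Timm17b, the X-linked paralogue of Timm17a, was among the least stable genes. It stood at 195 and 413 in WT 1 and 2, and 509 and 34.7 in Ythdf1 KO 1 and 2. The KO-labelled libraries thus differed from each other by 14.7 times, more than the groups did. In the opposite orientation, 74 bases from its start, begins Pqbp1, a splicing-related gene, with 118 and 98.9 in WT against 392 and 569. Pqbp1 is named after its values were seen.

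**Figure D2:**
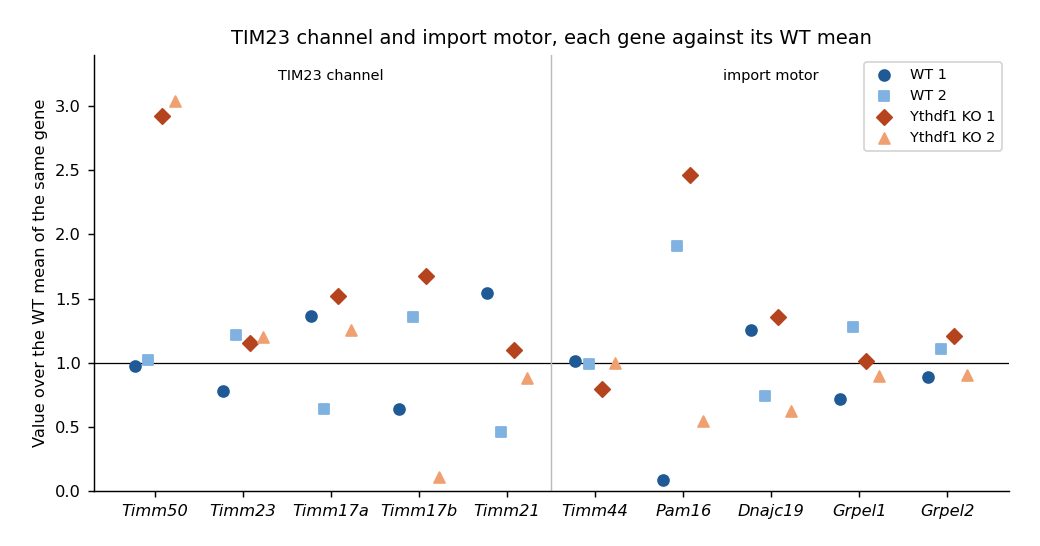
Value of each gene divided by the mean of its WT libraries, for the TIM23 channel and the import motor; symbols are the 4 libraries. Both Timm50 values of the KO-labelled pair lie near 3, and every other gene shown has at least 1 library of one group within the range of the other group.

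The import motor, which pulls presequence proteins into the matrix, did not separate by label in any of its 5 genes. Grpel2 and Grpel1 are the exchange factors of the matrix Hsp70. Grpel2 stood at 1090.0 and 1354 in WT 1 and 2, 1480.4 in Ythdf1 KO 1 and 1104 in Ythdf1 KO 2. Grpel1 had means of 990.3 ± 391 and 945 ± 81.8, Timm44, the membrane anchor of the motor, 831 ± 14.2 and 746 ± 122, and Dnajc19, its J-protein, 386 ± 138 and 382 ± 198 (SD, n = 2 each). Pam16, the J-like partner of Dnajc19, stood at 19.2 and 399 in WT 1 and 2, and 515 and 115 in Ythdf1 KO 1 and 2, so its highest library was 26.9 times its lowest. The Glis2 locus covers 8478 bases of the Pam16 transcript, all of it.

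Of the 9 genes named for the TOM complex, 3 lay wholly above WT and none below, against 14.3% and 21.4% of all genes. None had an unadjusted p under 0.05, and in 7 the difference was within the wider gap between libraries of a group. That last share was not worked out over all genes. The median log2 difference of the 9 was 0.40, against -0.087 over all genes kept. Over genes with a mean of at least 100, as all 9 have, it was 0.0027. WT 1 was the lowest library for Tomm40, Tomm40l, Tomm20, Tomm5, Tomm6 and Tomm7, but not for Tomm22, Tomm34 or Tomm70a. Tomm40, the pore of the complex, stood at 1073 and 1612 in WT 1 and 2, 1916 in Ythdf1 KO 1 and 2081 in Ythdf1 KO 2. The groups did not overlap, but WT 1 lay well under WT 2. limma-trend gave a log2 difference of 0.60 ± 0.28 (SE) and an adjusted p = 0.759. DESeq2 on recovered reads of all libraries gave Tomm40 an unadjusted p under 0.05 and an adjusted p = 0.166.

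Tomm40l, a paralogue of the pore, followed a like order, at 414 and 560.3 in WT 1 and 2, 688 in Ythdf1 KO 1 and 758 in Ythdf1 KO 2. Its log2 difference was 0.58 ± 0.36 (SE; adjusted p = 0.792, limma-trend). Its locus shares bases with Nr1i3 and Apoa2. Tomm70a, a receptor for carrier proteins with internal signals, stood at 1508 and 1421, and at 1640.4 and 2418. Ythdf1 KO 2 set most of that difference, which was 0.44 ± 0.27 (SE; adjusted p = 0.789, limma-trend).

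The presequence receptors stayed within their spread. Tomm20 stood at 919 and 1247 in WT 1 and 2, 958 in Ythdf1 KO 1 and 1323 in Ythdf1 KO 2. Tomm22, the central receptor, had means of 798 ± 1.21 and 791 ± 208 (SD, n = 2 each). Tomm34, which shares the name and is counted with the 9 but is a cytosolic cochaperone, had 942 ± 138 and 959 ± 345. The small subunits Tomm5, Tomm6 and Tomm7, which hold the complex together, had ratios of 1.20, 1.15 and 1.26. In each of these small subunits WT 1 was the lowest of the 4 libraries, at 265 for Tomm5, 468 for Tomm6 and 134 for Tomm7.

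The antisense RNA Tomm6os overlaps 777 bases of Tomm6 on the other strand. It stood at 183 and 148 in WT, at 122 in Ythdf1 KO 1 and at 0 in Ythdf1 KO 2. Its low value was that of 1 library, and the log2 difference of -3.90 ± 2.52 (SE; adjusted p = 0.799, limma-trend) rests on it. Reads of this pair cannot be told apart if counting ignored strand.

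The SAM complex did not separate by label. Samm50, the insertase barrel, stood at 1876 and 1289 in WT 1 and 2, 1363 in Ythdf1 KO 1 and 1256 in Ythdf1 KO 2. Mtx1 and Mtx2, the metaxins on its cytosolic side, had means of 689 ± 254 and 804 ± 62.6, and of 836 ± 137 and 1023 ± 256 (SD, n = 2 each).

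Of the 8 genes of the small TIM chaperones and the TIM22 channel, 3 lay wholly above WT, 1 below and 4 overlapped, against 14.3% of all genes above and 21.4% below. None had an unadjusted p under 0.05. Timm10 and Timm9 form a hexamer that carries membrane proteins across the intermembrane space. Timm10 stood at 229.9 and 164 in WT 1 and 2, 321 in Ythdf1 KO 1 and 301 in Ythdf1 KO 2 (log2 difference 0.68 ± 0.54 SE, adjusted p = 0.819, limma-trend). Timm9 stood at 128 and 169.6, and at 50.4 and 133, and the order of its libraries was not that of Timm10.

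Timm13 forms a second chaperone hexamer with Timm8a1, of which Timm8b is a relative. Timm8b stood at 281 and 248 in WT 1 and 2, and 331 and 697 in Ythdf1 KO 1 and 2, so the latter library made most of its log2 difference of 0.86 ± 0.53 (SE; adjusted p = 0.792, limma-trend). Timm13 stood at 703 and 653 in WT 1 and 2, 579.8 in Ythdf1 KO 1 and 428 in Ythdf1 KO 2 (log2 difference -0.44 ± 0.36 SE; adjusted p = 0.819, limma-trend). Sdhd, a subunit of respiratory complex II that begins 52 bases from the Timm8b start in the opposite orientation, stood at 2170 and 2616 in WT 1 and 2, and 2757 and 2052 in Ythdf1 KO 1 and 2, and so did not follow Timm8b.

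Timm8a1, on the X chromosome, had means of 323 ± 60.8 and 319 ± 125 (SD, n = 2 each). Timm8a2, a copy of it on chromosome 14, stood at 33.8 and 0 in WT 1 and 2, and 133 and 164 in Ythdf1 KO 1 and 2. The log2 difference of 4.65 ± 2.43 (SE; adjusted p = 0.759, limma-trend) leans on the library at 0. Against WT 1 alone, 30 reads there faced 137 and 198 reads in the KO-labelled pair. The other listed transcript, NM_001037744.1, had 22 and 0 reads in WT 1 and 2, against 0 and 103 in the KO-labelled pair, so its groups overlapped and the separation depends on the transcript chosen. Timm22, the carrier channel, had means of 278 ± 102 and 337 ± 91.0. Timm10b, its docking chaperone, stood at 949 and 498 in WT 1 and 2, and 578 and 742 in Ythdf1 KO 1 and 2, again overlapping.

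The disulfide relay folds cysteine-rich proteins, among them the small TIMs, and both of its genes lay wholly above WT, as 14.3% of all genes did. Both differences were within the wider gap between libraries of a group. Chchd4, the oxidoreductase, was a low gene, at 64.2 and 10.1 in WT 1 and 2, and 84.3 and 151 in Ythdf1 KO 1 and 2. WT 2 rested on 10 reads, and the WT libraries differed by 6.36 times. The log2 difference was 2.08 ± 1.53 (SE; adjusted p = 0.816, limma-trend). Gfer, the sulfhydryl oxidase that recharges it, was far steadier, at 829.6 and 972 in WT 1 and 2, and 1001 and 1019.9 in Ythdf1 KO 1 and 2 (log2 difference 0.17 ± 0.28 SE; adjusted p = 0.921, limma-trend).

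Both genes of the matrix processing peptidase lay below both WT libraries, as 21.4% of all genes did. Pmpca, its alpha subunit, stood at 1416 and 1647 in WT 1 and 2, 1136 in Ythdf1 KO 1 and 1318 in Ythdf1 KO 2. Pmpcb, the catalytic beta subunit, stood at 1064 and 1009.6, and at 802 and 862. The log2 differences were close, -0.32 ± 0.25 for Pmpca and -0.32 ± 0.28 for Pmpcb (SE; adjusted p = 0.819 and 0.825, limma-trend). The ratios were 0.801 and 0.802. For Pmpcb the difference was 3.05 times the larger of the gaps within a group on the log2 scale, second only to Timm50 among the import genes, at 23.7 times.

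**Figure D3:**
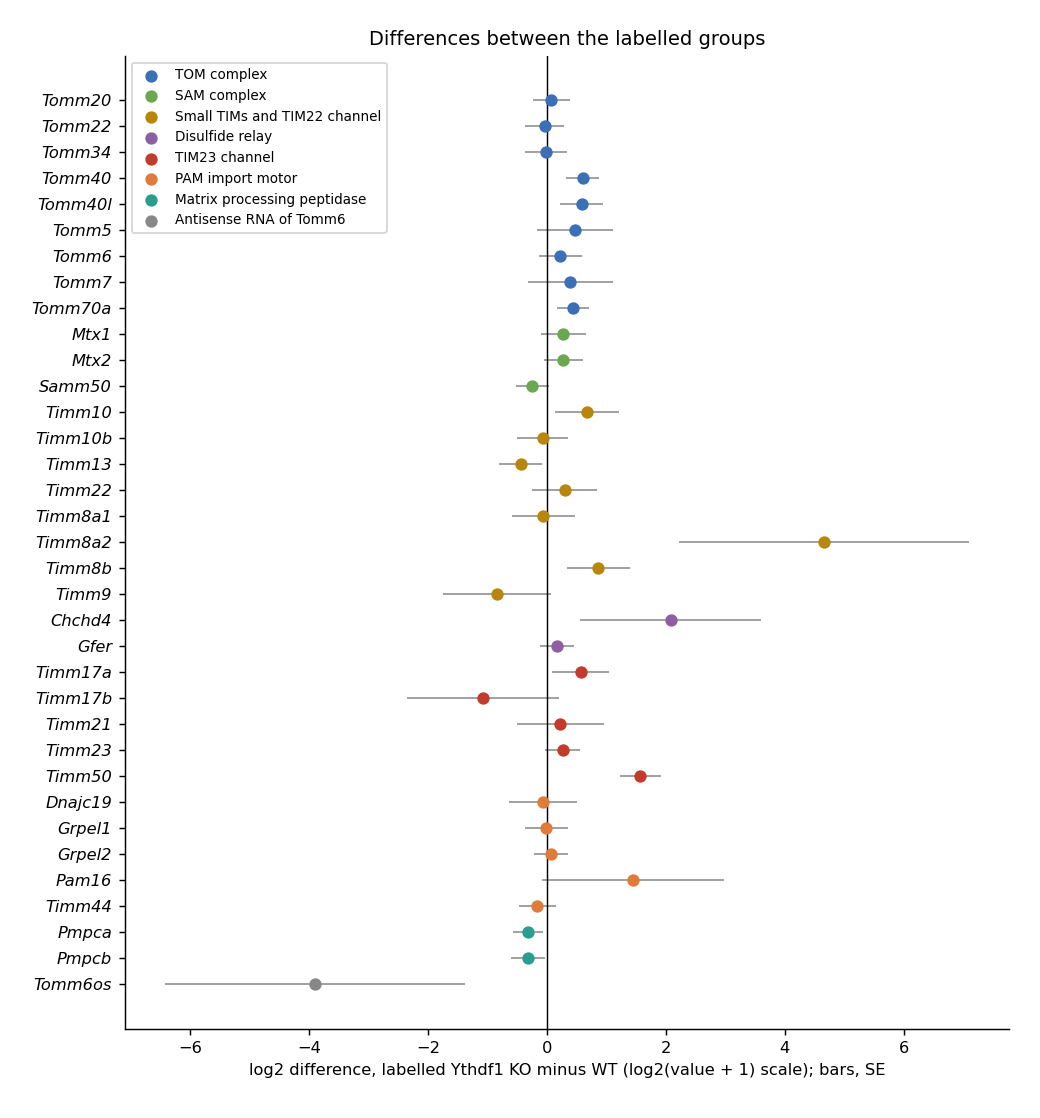
log2 difference of each import gene, labelled Ythdf1 KO minus WT, on the log2(value + 1) scale with its standard error as a bar; colours are roles. Timm50 at 1.57 has a short bar, the larger estimates of Timm8a2, Chchd4 and Tomm6os have long ones, and both peptidase genes lie at -0.32.

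As a whole the import genes had a median log2 difference of 0.22, with 21 above 0 and 14 below. The median over all genes kept was -0.087, and it was 0.00066 with quantile normalisation, where the import genes had 0.20. Without WT 1 the median of the import genes was -0.039, and that of all genes -0.14. The median deviation of the import genes from their means over the 4 libraries was -0.094 and 0.065 in WT 1 and 2, and 0.071 and 0.16 in the KO-labelled pair. The summed values were 22062 and 24409 in WT, and 25200.0 and 26722 in the KO-labelled pair. Without Timm50 they were 21742 and 24074, and 24243 and 25727. Sums over all genes also differed, by 3.03% between the group means, against 11.7% for the import genes and 9.07% for them without Timm50. In 28 of the 35 genes the group difference was no larger than the wider gap between libraries of a group. The same share was not worked out over all genes, so this count and those of the roles have no background.

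**Figure D4:**
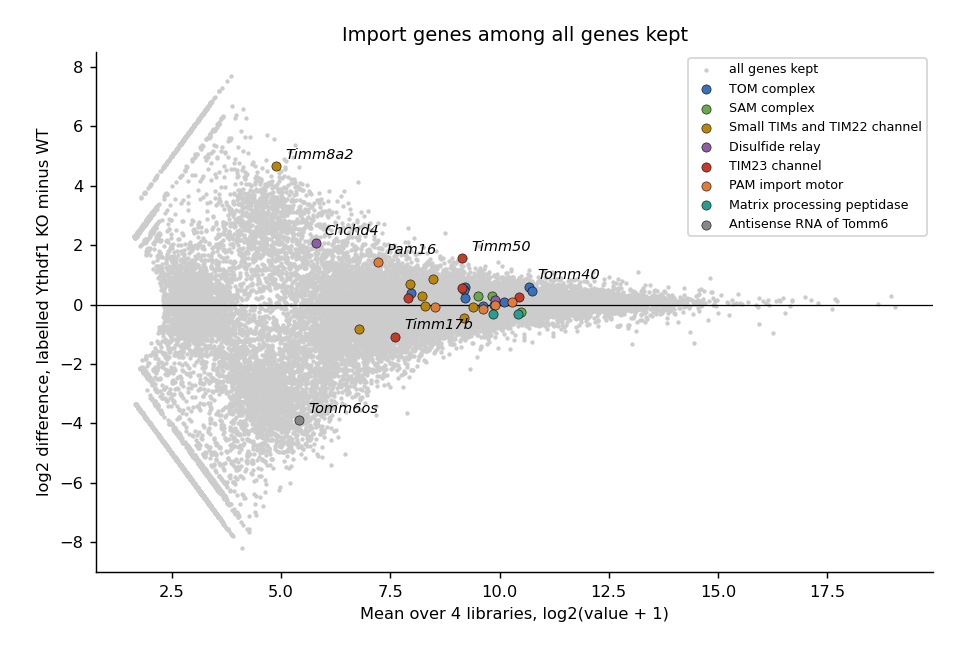
Mean level (log2(value + 1), x axis) against the log2 difference, labelled Ythdf1 KO minus WT, for all 23116 genes kept in grey and the import genes in the colour of their role. Most import genes lie in the cloud near 0, Timm50 lies on its upper edge at 1.57, and the genes far from 0, Timm8a2 and Tomm6os, lie where low values scatter widely.

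The listed transcripts of a gene did not always point the same way. Of the 18 import genes with more than 1 listed transcript, 11 had all their ratios on one side of 1 and 7 had ratios on both sides. Tomm40l had a ratio of 1.48 in each of its transcripts, and Tomm40 one of 1.49 in the more abundant. For Timm22 the most abundant transcript had a ratio of 1.21, and the ratio was as low as 0.531 for another. Pam16 ranged from 0.411 to 1.71, and Timm9 from 0.214 to 0.921 over its 6 transcripts. Transcripts of a gene each count the reads that they share, so these ratios show how the choice of transcript moves a gene, not isoform use.

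**Figure D5:**
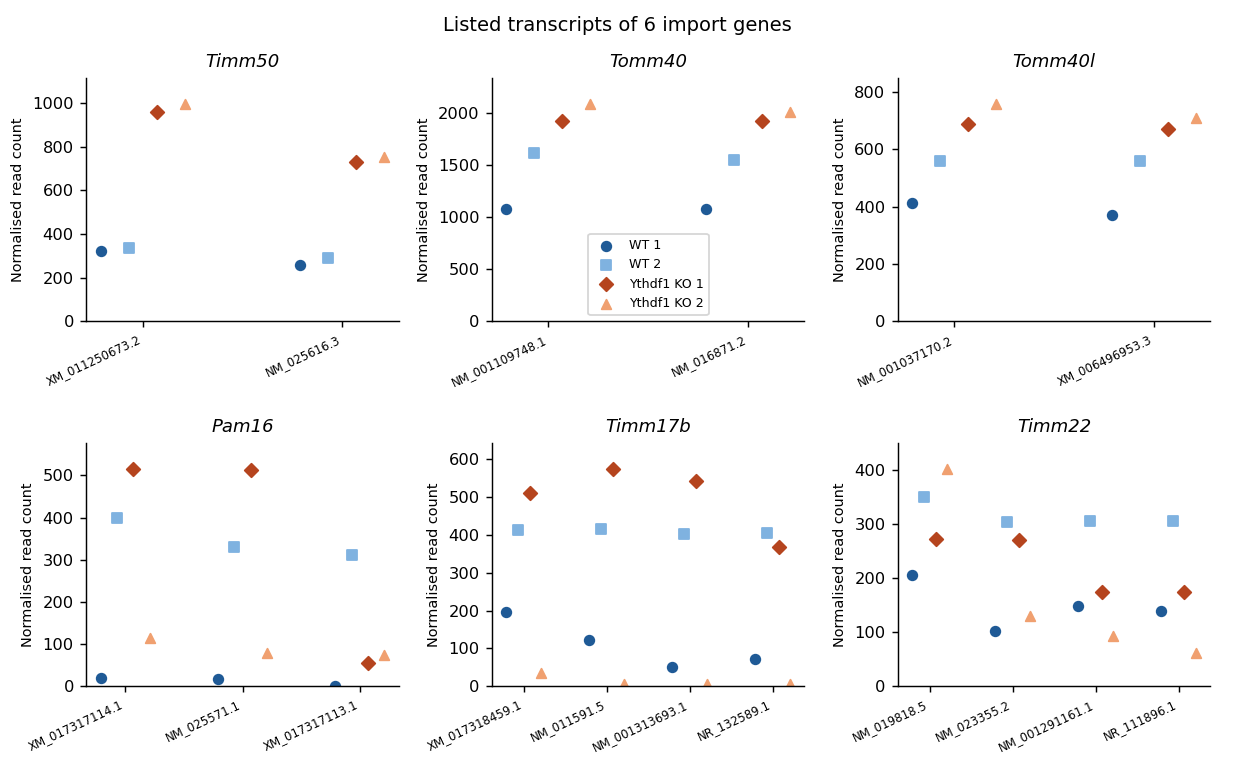
Normalised read count of each listed transcript of 6 import genes in the 4 libraries; the most abundant transcript is leftmost. Both transcripts of Timm50, Tomm40 and Tomm40l keep the groups apart, whereas in Pam16 and Timm17b the libraries of a group lie far from each other in most transcripts.

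Start regions were searched for short motifs, with no test of enrichment. RefSeq start regions of 300 bases, 250 before and 50 after the start, were at hand for 31 of the genes, at 33 starts. Grpel2, Timm21, Tomm40l and Tomm7 had no entry. The median GC content was 58.7% (range 46.0% to 80.3%), against 52.7% over all 32851 regions, and the median number of CpG pairs was 20.0 against 7.0. The letters CCGGAAGT, the core bound by ETS factors such as GABPA, or their reverse complement stood in 7 of the 33 regions (21.2%), against 3.89% of all regions. GGGCGG or its reverse complement stood in 20 of 33 (60.6%), against 35.7%; overlapping regions of Tomm34 gave 2 of the 20. TATAAA or its reverse complement stood in 3 of 33 (9.09%), against 13.6%. CACGTG, an E-box that reads the same on both strands, stood in 5 of 33 (15.2%), against 7.15%. CGCATGCG, the core of NRF1 sites, stood in 1 of 33 (3.03%), that of Timm13, against 1.87%. TGACGTCA, a CRE, stood in 0 of 33, against 1.79%. A region was counted once for each motif that it held, however many matches it had. A match is a description of letters, not a bound site.

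Windows of 30 bases around these ETS letters (capitals) are shown for 6 of the 7 genes, in gene orientation. In those shown, the letters began between base -80 (Tomm70a) and base 17 (Timm10) from the start. Only start regions were searched, so positions farther away could not be found. Mtx2 and Timm8a2 each held another match that is not shown.
Mtx2: gggcggagcagCCGGAAGTgccggcgcgcg
Pmpcb: ggagtcatgacCCGGAAGTacatctccact
Timm23: tcgcgcttcccACTTCCGGgccgcacacag
Timm8a2: gtgggtggggcACTTCCGGtccctggctcg
Tomm70a: gccttctgaccCCGGAAGTggttctcccct
Timm10: tagacttccttCCGGAAGTgacccacgtgc
The windows are chr2:74825776-74825805 (plus strand), chr5:21737133-21737162 (plus), chr14:32201921-32201950 (minus), chr14:122034652-122034681 (plus), chr16:57121623-57121652 (plus) and chr2:84827026-84827055 (plus). The Timm8a2 window lies at the start of NM_001037744.1, inside the span of the more abundant transcript XM_006518919.3. Timm10b was the remaining gene. Of these 7 genes, Tomm70a, Timm10 and Timm8a2 lay wholly above WT, Pmpcb wholly below, and Mtx2, Timm23 and Timm10b overlapped. Of all genes, 14.3% lay wholly above and 21.4% wholly below. For Timm8a2 the separation is that of XM_006518919.3, while the groups of NM_001037744.1 overlapped. Any part of these letters in the values was not tested.

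The letters AAGATGGCG, the core of YY1 sites, or their reverse complement stood in 2 of the 33 regions (6.06%), those of Timm50 and Mtx1, against 1.40% of all regions. In both they began at base 12, counted from 1 at the start that RefSeq's region is built on (capitals in the windows). For Timm50 that is the start of NM_025616.3, upstream of the more abundant transcript. For Mtx1 it lies inside the listed transcripts.
Timm50: gcgtcagcgcAAGATGGCGgcctcggcggc
Mtx1: gagagcgtacAAGATGGCGgcgcccatgga
The windows are chr7:28312016-28312045 and chr3:89213877-89213906, both on the minus strand. Timm50 had a ratio of 2.98 and Mtx1 of 1.17, with overlapping groups. Yy1 itself, the factor named for these letters, stood at 1944 and 1962 in WT, against 1608 and 1749 in the KO-labelled pair. It lay below both WT libraries, as 21.4% of all genes did (adjusted p = 0.842, limma-trend). Of other factors named above, Gabpa stood at 769 and 618 against 511 and 1017, with overlapping groups. Nrf1 also overlapped, at 600 and 966 against 811 and 615. These factors are named after their values were seen. Any part of them or of the letters in the values was not tested.

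A list of 51 import partners outside the chosen names held matrix chaperones, proteases, cristae and outer membrane proteins and regulators of mitochondrial genes, and 48 were listed. None passed the test in limma-trend, as none of all genes did. An unadjusted p under 0.05 was found for 1 partner, against 5.44% of all genes. That gene was Mtch1, an outer membrane insertase, at 2196 and 2255 in WT 1 and 2, 3345 in Ythdf1 KO 1 and 3596 in Ythdf1 KO 2. limma-trend gave a log2 difference of 0.64 ± 0.19 (SE) and an adjusted p = 0.759. Mtch1 had q = 0.00296 in the authors' deposited table and was called by DESeq2, the 1 partner called by either. Of all genes, 4.47% had such a q and DESeq2 called 6.49%.

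Its paralogue Mtch2 stood on the other side, at 2723 and 3220 in WT 1 and 2, 2470.3 in Ythdf1 KO 1 and 2039.8 in Ythdf1 KO 2. In all, 2 of the 48 partners lay wholly above WT and 8 below, against the 14.3% and 21.4% of all genes, with a median log2 difference of -0.0085. Those below included Xpnpep3, a peptidase that trims imported proteins, at 611 and 399.8 against 302 and 203, and Afg3l2, a subunit of an inner membrane protease, at 3838 and 4679 against 3381 and 3501. The matrix chaperones were mixed: Hspa9, the motor's Hsp70, had means of 3485 ± 547 and 3898 ± 116, Hspd1 2414 ± 734 and 3070.3 ± 424, and Hspe1 329 ± 1.52 and 234 ± 45.7 (SD, n = 2 each). Hspe1 lay below both WT libraries, and Hspa9 and Hspd1 overlapped. Named after their values were seen, Hscb, a matrix J-protein, with 152 and 153 against 86.3 and 123, and Clpx, a matrix unfoldase, with 1018 and 1059 against 788 and 821, also lay below both.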

How the data were processed

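Input RNA of 4 libraries was read from one deposited table. Its signal values are read counts that the authors divided by a size factor per library: in each library 100.0% of the deposited values were whole multiples, within 0.001 reads, of the value of 1 read, 1.13, 1.01, 0.969 and 0.827 in WT 1, WT 2, Ythdf1 KO 1 and Ythdf1 KO 2. For each transcript the authors deposited, per the file headers, their log2 fold change with its p-value and q-value. The submitters' processing notes list, with no role, the build mm10 and the tools deepTools 3.3.0, HOMER 4.10, MACS2 2.1.0, SAMtools 1.3.1, Bowtie2 2.2.5 and CASAVA 1.8. Which program counted reads was not given in the sources used here.

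Per gene the transcript with the highest mean of the 4 libraries was kept, since summing isoforms counts shared reads again. A gene was kept if 2 or more libraries reached a value of 1. Kept genes were fitted as log2(value + 1) with limma-trend (limma 3.58.1, robust, R 4.3.3) and Benjamini-Hochberg adjustment over all genes kept. On that scale a library at or near 0 weighs heavily. The log2 difference of Timm8a2 was 4.65 there, against 3.14 by the authors, and that of Tomm6os -3.90, against -1.44. An exact permutation test of 2 against 2 libraries cannot go below 0.333 (two-sided), so none was used. Ratios are of group means of values, without the added 1. edgeR 4.0.16 and DESeq2 1.42.0 on recovered reads, other filters, pseudocounts, scalings, a replicate block and each library left out were alternatives; fits were tested on simulated data. Values in every library are given for the 8 import genes with the smallest p, those with q under 0.05, those whose groups do not overlap, and the highest gene of each role. All 35 genes matched RefSeq by symbol. Values were not divided by transcript length, so levels of different genes are not compared. In RefSeq 18 import genes overlap another gene. Members and lists were chosen with earlier results of these data known.
Promoter motifs are short cores; those of NRF1 and YY1 were shortened after counts of longer forms had been seen.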

Additional observations from a re-analysis of the deposited data

How the results depend on the processing

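The log2 difference of Timm50 lay between 1.51 and 1.61 in all 14 alternatives, with an unadjusted p from 7.33e-09 to 0.0172. Its adjusted p was 0.254 to 0.989 except in DESeq2 on recovered reads, where the call was made (log2 difference 1.59, adjusted p = 9.79e-06). DESeq2 called 1431 genes in all, 1 import gene (Timm50) and 1 partner (Mtch1), and limma without a trend called 632 genes and no import gene. No other alternative with all libraries called a gene; edgeR's quasi-likelihood test called 0, with 1073 genes at an unadjusted p under 0.05, where limma-trend had 1257. With 1 library left out, the genes called ranged from 0 to 36, none of them an import gene or partner; the lone library of a group is then assumed to vary like the other group. The import genes above both WT libraries then ranged from 13 to 19 and those below from 8 to 9; of all genes, 29.0% to 31.9% lay above and 34.5% to 39.1% below in these smaller designs. Their median log2 difference ranged from -0.039 (without WT 1) to 0.30. No import gene given with a test changed direction in any alternative. The replicate block kept the call count at 0 and changed no call, with a median of 0.22 and an adjusted p = 0.648 for Timm50 (limma-trend). The labels give no origin for the replicate numbers, and same-numbered libraries did not deviate together (correlation of deviations across genes -0.00795). Counting error limits genes with few reads, such as Chchd4 and Timm8a2.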
